A study of Mus musculus with 22 samples.

Results

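The genes described here are 41 identity genes of macrophages and monocytes, chosen by name and not by a threshold on their values. Earlier results of these data were known when they were chosen. They are followed through the pancreatic CD8α- dendritic cells (DCs) of a diabetes-prone and a control mouse strain. Each gene was read by the probe set that names it alone and is brightest over all 22 arrays, and 40 of the 41 have one, of 18193 such genes on the array. Ly6c2, a surface antigen of inflammatory monocytes, shares its only probe set with its near-identical neighbour Ly6c1 and was given no value.

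The cells were sorted as CD11c+CD8α- from the CD45-enriched digest of pancreases of 5 weeks old female mice, with 10 pancreases pooled for each array. Per the methods the strains were NOD/ShiLtJ and C57BL/6J. The 6 groups were NOD and C57BL/6 cells cultured for 18 h with lipopolysaccharide (LPS; 4 NOD and 3 C57BL/6 arrays), NOD and C57BL/6 cells cultured for 18 h with PBS (4 arrays each), and NOD and C57BL/6 cells at steady state, lysed after the sort with no treatment (3 NOD and 4 C57BL/6 arrays). All mice were without diabetes, the NOD mice being prediabetic, and no engineered allele is named for either strain. Each array is a pool, so the spread between arrays is that between pools and not between single mice. All values below are log2 expression values made with RMA, given in the order of the replicate numbers (1, 4 and 6 for NOD and 1, 4, 5 and 6 for C57BL/6 at steady state, 2, 3 and 4 for C57BL/6 with LPS, 1 to 4 otherwise). A difference of 1 on this scale is a 2-fold difference, and a gene was called at an adjusted p (Benjamini-Hochberg, limma) under 0.1 over 45037 probe sets.

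Macrophages and DCs are both mononuclear phagocytes. Macrophages stay in the tissue and take up dying cells, modified lipids and opsonised particles through receptors such as those of Marco, Cd36, Timd4, Mertk and Vsig4, while transcription factors of the Maf, PU.1 and nuclear receptor families keep their tissue programme. Macrophages in culture away from their tissue are known to lose many of these genes, and part of the pancreatic cells that carry CD11c are macrophages of islets and stroma, so such genes can be found in a CD11c sort.

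Promoters are shown for the genes with the largest changes between PBS culture and steady state, since their move in the same direction in both strains is the largest pattern described below. Of the 40 measured genes, 31 were found in the RefSeq promoter table (build GRCm38.p6, 250 bases before to 50 after the start) and 26 of them have 1 promoter there, and from these the 3 with the largest mean fall and the 3 with the largest mean rise over both strains are printed, 5′ to 3′ on the strand of the gene. Vsig4 (chrX:96293389-96293688, minus strand), Cd163 (chr6:124304401-124304700, plus strand) and P2ry12 (chr3:59262936-59263235, minus strand) fell, and Gpnmb (chr6:49036268-49036567, plus strand), Spic (chr10:88682974-88683273, minus strand) and Ms4a4c (chr19:11407411-11407710, plus strand) rose. Capitals mark every match on either strand to GAGGAA (a PU.1 core), TGCTGA (a core of MAF sites), CATGTG or CACGTG (E-boxes).
Vsig4: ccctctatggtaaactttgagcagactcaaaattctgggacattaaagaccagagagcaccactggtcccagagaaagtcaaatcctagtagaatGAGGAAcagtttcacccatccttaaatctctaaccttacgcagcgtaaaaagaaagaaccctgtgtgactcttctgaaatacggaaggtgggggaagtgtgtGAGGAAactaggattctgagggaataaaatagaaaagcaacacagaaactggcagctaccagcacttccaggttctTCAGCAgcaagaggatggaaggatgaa
Cd163: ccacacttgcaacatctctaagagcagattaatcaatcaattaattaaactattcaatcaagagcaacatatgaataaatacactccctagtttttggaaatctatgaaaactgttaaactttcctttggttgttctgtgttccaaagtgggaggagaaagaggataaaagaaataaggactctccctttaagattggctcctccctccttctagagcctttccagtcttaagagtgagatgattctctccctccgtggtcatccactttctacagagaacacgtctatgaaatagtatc
P2ry12: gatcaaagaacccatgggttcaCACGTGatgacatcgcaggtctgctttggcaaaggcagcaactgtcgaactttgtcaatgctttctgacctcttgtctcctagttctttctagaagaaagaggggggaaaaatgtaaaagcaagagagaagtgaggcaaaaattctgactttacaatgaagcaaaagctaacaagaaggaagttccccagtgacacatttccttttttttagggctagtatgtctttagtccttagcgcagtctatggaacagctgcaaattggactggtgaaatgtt
Gpnmb: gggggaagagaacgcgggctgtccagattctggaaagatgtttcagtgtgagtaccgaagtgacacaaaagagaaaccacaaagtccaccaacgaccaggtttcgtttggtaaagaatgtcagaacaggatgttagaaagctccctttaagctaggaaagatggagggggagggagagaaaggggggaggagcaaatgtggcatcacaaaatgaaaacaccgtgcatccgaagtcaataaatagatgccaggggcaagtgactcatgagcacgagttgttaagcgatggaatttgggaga
Spic: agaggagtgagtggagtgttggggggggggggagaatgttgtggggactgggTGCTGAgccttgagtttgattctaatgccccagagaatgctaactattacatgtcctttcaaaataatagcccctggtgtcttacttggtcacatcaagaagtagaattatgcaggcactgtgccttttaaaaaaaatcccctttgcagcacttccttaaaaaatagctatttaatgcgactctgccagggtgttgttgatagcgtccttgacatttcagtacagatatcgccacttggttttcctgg
Ms4a4c: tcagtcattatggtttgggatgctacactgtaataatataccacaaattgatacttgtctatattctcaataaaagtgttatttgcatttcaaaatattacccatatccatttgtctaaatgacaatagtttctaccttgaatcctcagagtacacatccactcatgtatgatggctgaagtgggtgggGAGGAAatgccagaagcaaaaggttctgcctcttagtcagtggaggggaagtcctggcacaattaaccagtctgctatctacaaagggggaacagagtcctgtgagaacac
Vsig4 has a pair of GAGGAA matches and 1 TGCTGA match on the other strand (read here as TCAGCA), P2ry12 has a CACGTG, Spic a TGCTGA and Ms4a4c a GAGGAA, and no marked match overlaps another. Cd163 and Gpnmb hold none of these letters in the window. Over 38 promoters of the 31 genes, 17 hold GAGGAA, 12 TGCTGA, 8 CATGTG and 3 CACGTG (44.74%, 31.58%, 21.05% and 7.89%), and these letters are in 28.3%, 19.5%, 14.2% and 7.15% of all 32851 promoters listed there. A match is a description of the sequence and not a measured binding site.

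The medians of the 22 arrays lay between 7.633 and 7.684, and no pair of arrays was identical (highest correlation 0.9966). Markers of DCs were present, with a mean level over 13 of 14 listed genes of 9.90 to 10.46 in culture and 10.86 to 11.12 at steady state, and Itgax, which encodes CD11c, averaged 8.34 to 9.03 in the 4 cultured groups against 10.89 in NOD and 11.32 in C57BL/6 at steady state. The list of other macrophage and monocyte genes (17 of 18 measured) stood higher, at 11.69 to 12.25 in culture and 12.73 to 12.95 at steady state. The lists hold different genes, so their levels do not give shares of cells. Genes of acinar and islet cells (5 of 7 measured) were also seen, at 8.19 to 10.78 in culture and 10.71 to 11.60 at steady state. Fibroblast genes were at 7.52 to 8.12 in culture and 8.33 to 9.41 at steady state. In such sorted bulk samples, fewer cells of a type and less RNA per cell cannot be told apart.

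**Figure D1:**
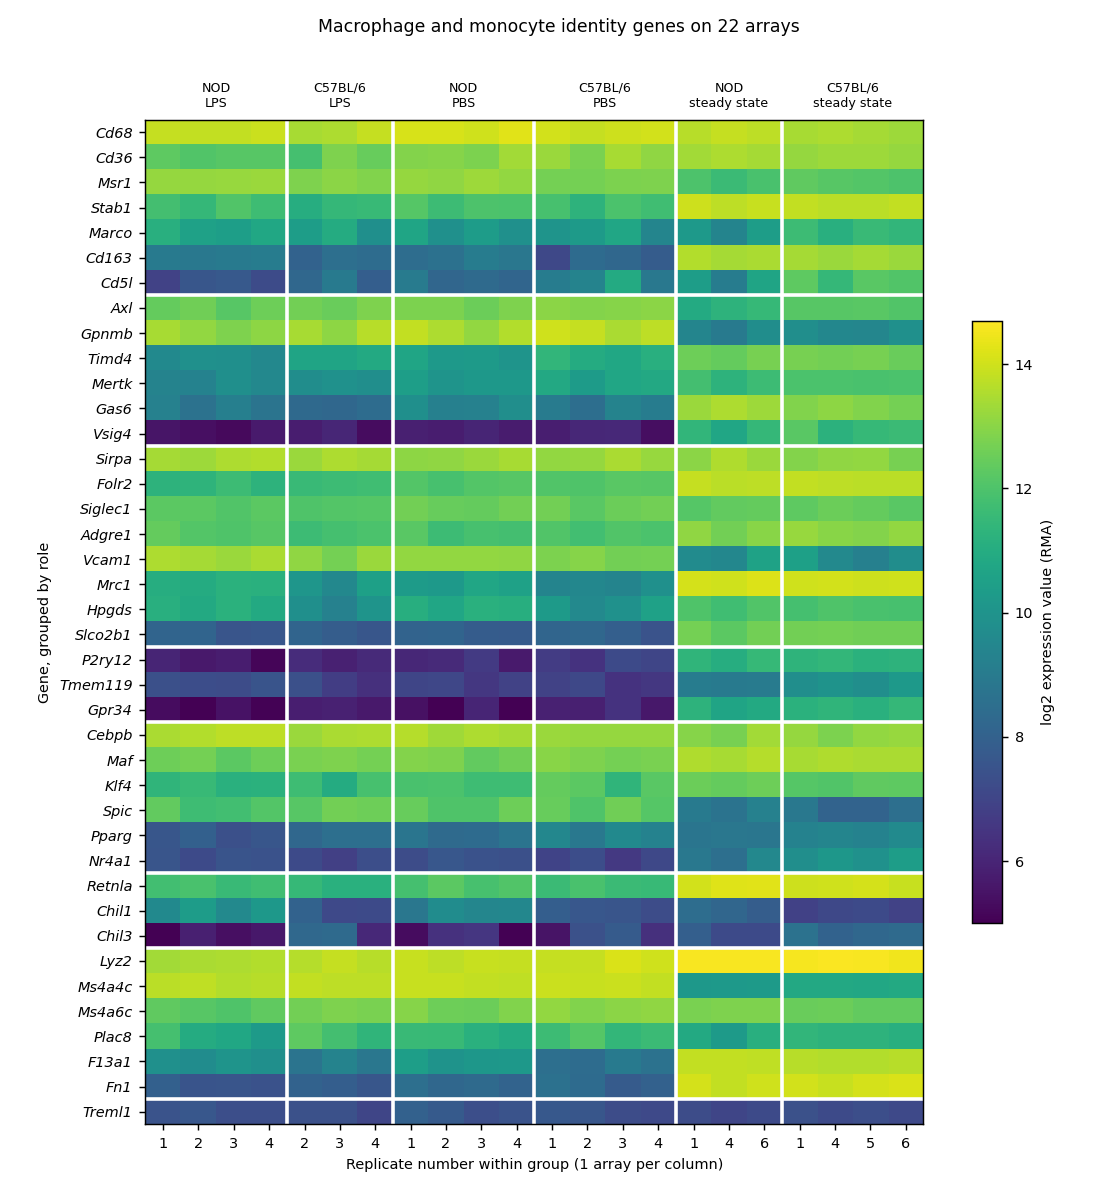
Log2 expression values (colour) of the 40 measured genes (rows, grouped by role from scavenger genes at the top to the TREM-like gene Treml1 at the bottom) on the 22 arrays (columns, by group). The 7 steady state columns at the right differ from the 15 cultured columns in most rows, with Fn1 at 7.43 to 8.61 in culture and 13.81 to 14.14 at steady state.

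To see what 18 h of culture without LPS did to these genes, PBS culture was compared with steady state in each strain. Most of the identity genes fell. In NOD 24 of 40 were lower and 11 higher, against 30.0% of 18193 genes lower and 41.6% higher, and in C57BL/6 23 were lower and 11 higher, against 32.3% lower and 44.6% higher over all genes. In both strains 22 fell and 9 rose, that is 55% and 22.5% of the 40, while 26.7% of all genes fell and 36.3% rose in both, and none of the 40 was called in opposite directions. Their median log2 difference was −0.89 in NOD and −1.16 in C57BL/6, and that of all genes 0.16 and 0.17. The 2 comparisons have no array in common. Shares of all genes, here and below, are not matched for level, and many of the 40 are brighter than most genes.

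A fall of more than 16-fold in both strains was found for 6 of the 40 (15%) and for 0.137% of all genes. The 6 are Fn1, Vsig4, Gpr34, Cd163, P2ry12 and Slco2b1. They stood at 10.65 to 14.14 on the steady state arrays, while the array medians were 7.63 to 7.68. The share of all genes is not matched for level, and a gene near the floor cannot fall this far. Fn1, which encodes fibronectin, had 8.54, 8.24, 8.36 and 8.10 in NOD PBS culture against 14.09, 13.81 and 14.00 at steady state, and 8.61, 8.39, 7.79 and 8.02 in C57BL/6 PBS culture against 14.05, 13.90, 14.06 and 14.14 at steady state. All cultured arrays lay far below all steady state arrays, and the log2 differences were −5.65 (SE 0.14, adjusted p = 1.04e-10) in NOD and −5.83 (SE 0.16, adjusted p = 1.58e-10) in C57BL/6, which are 50.4-fold and 57-fold. A second probe set of Fn1 fell too (−5.23 in NOD and −5.03 in C57BL/6).

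Vsig4, a complement receptor of resident macrophages, had 5.85, 5.76, 6.02 and 5.73 in NOD PBS culture against 11.37, 10.76 and 11.48 at steady state (log2 difference −5.36 with SE 0.17, adjusted p = 6.14e-10). In C57BL/6 it had 5.80, 6.07, 6.10 and 5.37 in PBS culture against 12.23, 11.23, 11.50 and 11.62 at steady state (log2 difference −5.81 with SE 0.21, adjusted p = 1.17e-09). No cultured array came near a steady state array. Gpr34, a lysophospholipid receptor enriched in microglia, had 5.43, 4.96, 5.99 and 4.90 in NOD PBS culture against 11.28, 10.65 and 10.90 at steady state (log2 difference −5.62 with SE 0.25, adjusted p = 6.2e-09). The C57BL/6 values of Gpr34 were 5.87, 5.86, 6.43 and 5.64 in PBS culture against 11.19, 11.34, 11.15 and 11.45 at steady state (log2 difference −5.33 with SE 0.16, adjusted p = 2.41e-10), again without overlap. P2ry12, an ADP receptor of microglia, had 6.09, 6.14, 6.66 and 5.72 in NOD PBS culture against 11.36, 11.05 and 11.49 at steady state (log2 difference −5.15 with SE 0.2, adjusted p = 2.41e-09). For C57BL/6 these were 6.73, 6.42, 7.16 and 7.02 in PBS culture against 11.31, 11.42, 11.18 and 11.28 at steady state (log2 difference −4.46 with SE 0.15, adjusted p = 6.05e-10). The cultured and steady state arrays were thus separate for all 3 genes in both strains. Vsig4, Gpr34 and P2ry12 lay under the lower quartile of the array (6.03 to 6.36) on 15, 14 and 10 of the 22 arrays, and Chil3, described below, on 8, all of them cultured. The separation of such dim values from background was not tested, which leaves the size of these falls uncertain.

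Cd163, the receptor that takes up haemoglobin bound to haptoglobin, had 8.49, 8.63, 9.08 and 8.83 in NOD PBS culture against 13.57, 13.39 and 13.47 at steady state (log2 difference −4.72 with SE 0.15, adjusted p = 6.02e-10). Its C57BL/6 values were 7.11, 8.41, 8.25 and 7.82 in PBS culture against 13.38, 13.25, 13.40 and 13.25 at steady state (log2 difference −5.42 with SE 0.23, adjusted p = 3.19e-09). The steady state arrays lay close together in each strain, whereas PBS replicate 1 was the lowest of the cultured C57BL/6 arrays by a wide margin. Slco2b1, an organic anion transporter of macrophages, had 8.08, 8.11, 7.82 and 7.78 in NOD PBS culture against 12.66, 12.27 and 12.63 at steady state (log2 difference −4.57 with SE 0.14, adjusted p = 5.44e-10). With 8.16, 8.22, 7.95 and 7.49 in PBS culture against 12.63, 12.68, 12.58 and 12.58 at steady state, C57BL/6 cells had nearly the same fall (log2 difference −4.66 with SE 0.15, adjusted p = 4e-10), and the 2 other probe sets of the gene fell too (−6.78 and −2.29 in NOD, −6.81 and −1.75 in C57BL/6).

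Gas6, the ligand of the receptors Mertk and Axl, had 9.85, 9.24, 9.25 and 9.79 in NOD PBS culture against 13.22, 13.49 and 13.28 at steady state (log2 difference −3.80 with SE 0.17, adjusted p = 8.41e-09), and in C57BL/6 its log2 difference was −3.86 (adjusted p = 3.22e-09). F13a1, the A subunit of coagulation factor XIII, had 8.53, 8.44, 9.01 and 8.67 in C57BL/6 PBS culture against 13.67, 13.59, 13.57 and 13.66 at steady state (log2 difference −4.96 with SE 0.13, adjusted p = 1.01e-10), and in NOD its difference was −3.64 (adjusted p = 1.45e-09). Mrc1, the mannose receptor, had 9.38, 9.49, 9.37 and 9.87 in C57BL/6 PBS culture against 14.01, 14.03, 13.97 and 14.01 at steady state (log2 difference −4.47 with SE 0.12, adjusted p = 1.38e-10), and in NOD the difference was −3.62 (adjusted p = 3.23e-09). No group of these 3 genes overlapped its counterpart.

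The other falls were found in every role but that of Treml1. Of the 7 scavenger and lipid uptake genes 4 fell in each strain. Stab1, a scavenger receptor of resident macrophages and sinus endothelium, was one (−1.91 in NOD and −2.05 in C57BL/6), and Cd5l, a secreted protein of tissue macrophages, another (−1.61 and −2.45). Of the 6 genes for the clearance of dying cells and opsonised particles 4 fell in each strain, among them Timd4, a phosphatidylserine receptor (−2.23 in NOD and −1.56 in C57BL/6), and the receptor kinase Mertk (−1.38 and −1.24). All 3 microglia-enriched genes fell, Tmem119 included (−2.13 in NOD and −3.21 in C57BL/6). Of the 8 other surface and metabolic genes 5 fell in each strain, such as Folr2, a folate receptor (−1.69 in NOD and −1.62 in C57BL/6), Adgre1, a macrophage surface receptor (−1.01 and −1.08), and Hpgds, a prostaglandin D synthase (−0.94 and −1.84). Retnla, a secreted marker of alternative activation, fell (−2.18 in NOD and −2.31 in C57BL/6), and so did the chitinase-like Chil3 (−1.63 and −1.56). Among the transcription factors Maf, which resident macrophages use, fell (−0.85 in NOD and −0.67 in C57BL/6) and so did Nr4a1, a nuclear receptor of patrolling monocytes (−1.56 and −3.09), and of the monocyte genes the lysozyme gene Lyz2 fell (−0.75 and −0.62) beside Fn1 and F13a1. Klf4 was called lower in NOD (−0.68), with −0.15 in C57BL/6 not called. Cd36 was called lower in NOD (−0.43), with −0.10 in C57BL/6 not called, but both of its other probe sets were called lower in both strains (−0.98 and −1.18 in NOD, −0.62 and −1.34 in C57BL/6). Marco, a scavenger receptor, was called lower in C57BL/6 (−1.31), with 0.18 in NOD not called.

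Gpnmb, a lysosomal glycoprotein of lipid-loaded macrophages, was the gene among the 40 with the largest rise. It had 13.82, 13.49, 13.14 and 13.57 in NOD PBS culture against 9.42, 8.96 and 9.76 at steady state (log2 difference 4.12 with SE 0.2, adjusted p = 1.26e-08), with no overlap, and in C57BL/6 its difference was also 4.12 (SE 0.14, adjusted p = 5.24e-10). Ms4a4c, a membrane-spanning protein of monocytes, rose by 3.63 in NOD and 3.02 in C57BL/6, Spic, a transcription factor of red pulp macrophages, by 3.28 and 3.91, and Vcam1, an adhesion molecule, by 3.21 and 3.00. Smaller rises in both strains were those of Axl (1.49 in NOD and 0.82 in C57BL/6), the scavenger receptor Msr1 (1.33 and 0.59), the chitinase-like Chil1 (1.20 and 0.57), Plac8 (0.52 and 0.44) and the lysosomal Cd68 (0.37 and 0.58). Cebpb (0.45) and Treml1 (0.48), a TREM-like gene known from platelets, were called in NOD, and Ms4a6c (0.58) and Sirpa (0.27) in C57BL/6. The second probe sets of Cebpb (1.44 in NOD and 1.68 in C57BL/6) and Ms4a6c (0.92 and 1.37) were called higher in both strains. Of all 40, Siglec1 and Pparg were called in neither strain.

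**Figure D2:**
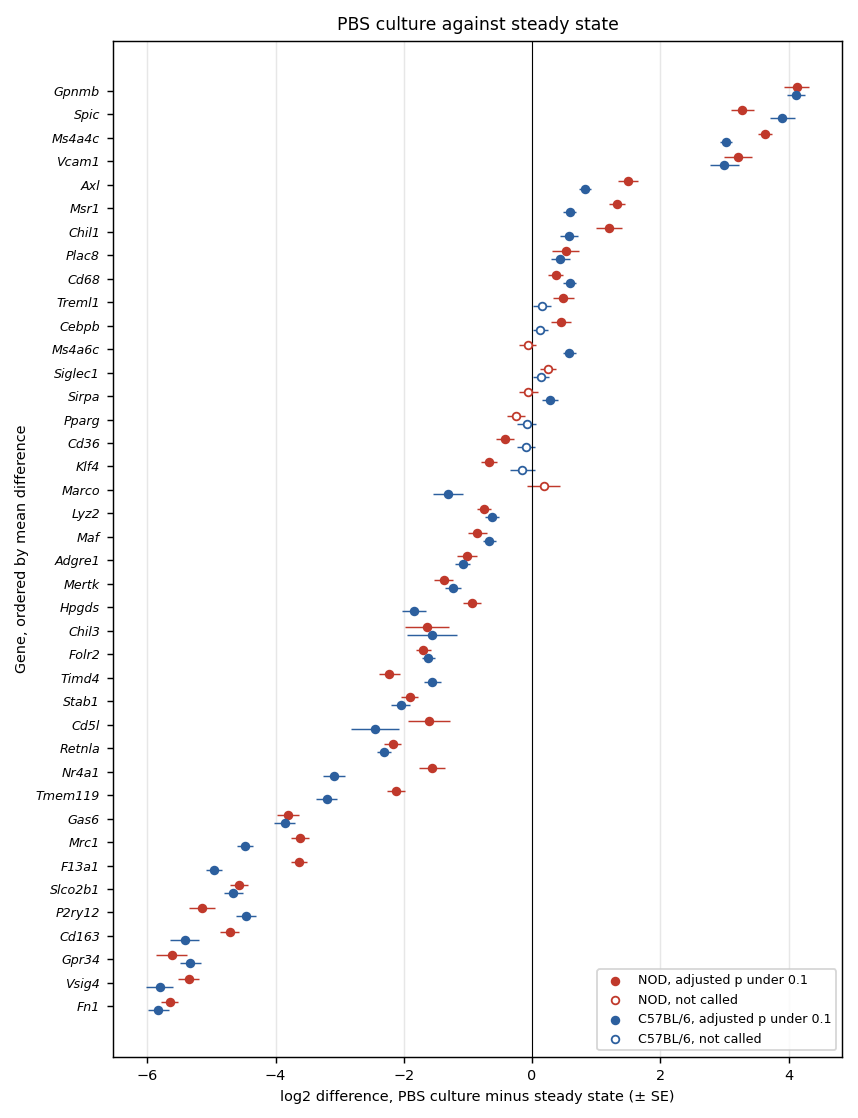
Log2 difference of PBS culture minus steady state (x axis, ± SE) for the 40 genes (y axis, ordered by the mean of both strains), NOD in red and C57BL/6 in blue, filled where the adjusted p was under 0.1. The largest falls are those of Fn1 (−5.65 in NOD and −5.83 in C57BL/6) and its neighbours at the bottom, the largest rise is that of Gpnmb at the top (4.12 in both).

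The same 2 groups of arrays may also differ in more than culture. The sources differ on how the arrays are related. The design text of the study calls the culture another experiment than the steady state sort, and the sample titles name no experiment. The methods instead describe the sorted cells as split, one portion lysed at once and the other cultured. Where the arrays come from separate experiments, culture and experiment cannot be told apart. Of 17 other macrophage and monocyte genes measured, 10 fell and 5 rose in NOD and 11 fell and 4 rose in C57BL/6, among them the chemokine receptors Cx3cr1 (−3.89 in NOD and −4.73 in C57BL/6) and Ccr2 (−3.74 and −2.74). Of 13 DC markers 9 fell and 1 rose in NOD and 7 fell and 3 rose in C57BL/6, among them Ccr7, a receptor of migrating DCs, which rose by 4.22 and 4.13, and Itgax, which fell (−1.96 and −2.29). Of 5 acinar and islet genes 3 fell and 1 rose in NOD and 3 fell and 2 rose in C57BL/6. The largest fall among them was that of Cela1 of acinar cells (−3.16 in NOD and −3.43 in C57BL/6). Of 5 fibroblast genes 3 fell and 2 rose in NOD and 4 fell and 1 rose in C57BL/6. The collagen gene Col3a1 fell the most of these (−2.51 and −3.81). The part of these shifts in the falls of the identity genes was not tested.

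Other probe sets disagreed for some genes. Sirpa had a second probe set that fell in culture (−0.97 in NOD and −1.02 in C57BL/6), 1 of 5 probe sets of Maf other than its main one rose in C57BL/6 (0.91), and a second one of Marco rose in NOD (0.89) and had 0.22 in C57BL/6, not called. The second probe set of Axl was called in neither strain (−0.10 in NOD and 0.19 in C57BL/6). Its mean over all arrays was 3.57, far under the lower quartile (6.03 to 6.36), so it says little about Axl. Of the other Msr1 probe sets, 1 was not called in C57BL/6 (0.06). Both other probe sets of Siglec1 rose in both strains (0.96 and 0.88 in NOD, 0.58 and 1.06 in C57BL/6). The call of Plac8 in NOD ended without NOD steady state replicate 4 or NOD PBS replicate 1 or 2 (adjusted p = 0.224, 0.102 and 0.117), that of Cebpb without NOD steady state replicate 4 (0.103), and that of Sirpa in C57BL/6 without steady state replicate 1 or 6 or PBS replicate 3 (0.138, 0.187 and 0.163), and the Plac8 calls also ended in 1 fit of all 22 arrays (0.103 in NOD and 0.131 in C57BL/6).

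The next question was whether NOD and C57BL/6 cells differ in these genes at steady state. NOD cells had less of the scavenger genes Cd5l and Marco, of the nuclear receptor Nr4a1 and of 5 others, and more of Chil1 and 4 others. Of the 40 genes 5 were higher and 8 lower in NOD, which is 12.5% and 20%, against 6.87% and 8.35% of all genes. These shares are not matched for level. Most of the list, 27 genes, was not called.

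Cd5l had 10.38, 9.09 and 10.65 in NOD against 12.28, 11.45, 12.23 and 12.08 in C57BL/6 (log2 difference −1.97 with SE 0.33, adjusted p = 0.00314). The highest NOD array was below the lowest C57BL/6 array, and the difference is 3.91-fold. Marco had 10.25, 9.39 and 10.41 in NOD against 11.64, 11.10, 11.58 and 11.38 in C57BL/6 (log2 difference −1.41 with SE 0.22, adjusted p = 0.00228), and a second probe set of the gene was lower too (−0.55). Nr4a1 had 8.87, 8.54 and 9.54 in NOD against 9.78, 10.15, 9.92 and 10.41 in C57BL/6 (log2 difference −1.08 with SE 0.22, adjusted p = 0.00993). For these 3 genes NOD replicate 4 was the lowest array. Chil1 had 8.46, 8.19 and 7.88 in NOD against 6.86, 7.11, 7.17 and 6.92 in C57BL/6 (log2 difference 1.16 with SE 0.14, adjusted p = 0.000407), and all 3 NOD arrays were above all 4 C57BL/6 arrays.

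The other genes lower in NOD were Tmem119 (−0.93, SE 0.12), Axl (−0.91, SE 0.13), Chil3 (−0.89, SE 0.20), Ms4a4c (−0.64, SE 0.087) and Pparg, a nuclear receptor of lipid metabolism (−0.60, SE 0.11), with adjusted p between 0.000703 (Tmem119) and 0.0146 (Chil3). Those higher were Spic (0.60, SE 0.20), Gas6 (0.48, SE 0.12), Cd68 (0.36, SE 0.098) and Ms4a6c (0.35, SE 0.093), with adjusted p between 0.0243 (Gas6) and 0.0917 (Spic). Thus the ligand Gas6 was higher and its receptor Axl lower in NOD, and the other receptor, Mertk, had −0.36 (adjusted p = 0.104). A fit blocked on the replicate number called 19 genes, adding Mertk (−0.37, adjusted p = 0.074), Vsig4 (−0.49, 0.0289), Plac8 (−0.49, 0.0549) and Gpnmb (−0.33, 0.0968) to those lower and Sirpa (0.35, 0.0779) and Klf4 (0.32, 0.0793) to those higher. The share of all genes called in that blocked fit was not computed. In the unpaired fit the groups overlapped for Spic alone among the 13. Overlap was not counted over all genes, here or below, so such counts have no background. Fn1 and Mrc1, with large falls in culture, were not called here, with Fn1 at 13.96 ± 0.14 in NOD and 14.04 ± 0.10 in C57BL/6 and Mrc1 at 14.09 ± 0.10 in NOD and 14.00 ± 0.02 in C57BL/6 (SD, n = 3 and 4).

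Other markers moved with strain at steady state. Of 6 NK cell markers 4 were lower in NOD, Gzma (−1.61) and Ncr1 (−1.46) the most, 3 of 5 fibroblast markers were lower, with Col3a1 at −1.04, and 4 of 13 DC markers were lower, with Itgax at −0.43. Of 5 mast cell and basophil markers 2 were lower, Mcpt4 (−1.52) and Cpa3 (−1.33), and of 5 T cell markers 2 were higher, Cd3e (0.79) and Cd5 (0.41). The mean level of the NK list was 8.98 to 9.22 on NOD and 9.68 to 9.97 on C57BL/6 arrays, and that of the fibroblast list 8.33 to 8.71 on NOD and 8.80 to 9.41 on C57BL/6 arrays, and their part in the differences was not tested. Of 17 other macrophage and monocyte genes 2 were higher (Clec4n, 0.85, and Trem2, 0.76) and 3 lower (Cx3cr1, −0.84, Mpeg1, −0.71, and Ccr2, −0.41). Msr1, not called by its main probe set, was higher by 1 of its other probe sets (0.66) and lower by another (−0.45). Other probe sets of Axl (0.25, the dim one described above), Spic (0.53) and Ms4a6c (0.01) were not called. However, 1 of Slco2b1 was called higher (0.77) and 1 of Siglec1 lower (−0.35). Without single arrays the calls of Spic (5 of 7 arrays, adjusted p up to 0.277 without NOD replicate 6), Ms4a6c (0.101 without C57BL/6 replicate 5 and 0.13 without NOD replicate 6) and Cd68 (0.131 and 0.13 without NOD replicate 4 or 6) ended. In 1 fit of all 22 arrays those of Chil3 (0.341) and Gas6 (0.132) did, Spic also lost its call with array medians subtracted (0.106) and Ms4a6c with the mean over its probe sets (0.124).

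The strains were compared again after 18 h with PBS. Here Chil1 and F13a1 were among the genes higher in NOD, with 7 of the 40 higher and 4 lower (17.5% and 10%), against 5.43% and 5.28% of all genes. Chil1 had 8.85, 9.73, 9.43 and 9.49 in NOD against 7.89, 7.64, 7.56 and 7.25 in C57BL/6 (log2 difference 1.79 with SE 0.19, adjusted p = 0.000185), a 3.46-fold difference with wide space between the strains. F13a1 had 10.43, 9.98, 10.12 and 10.18 in NOD against 8.53, 8.44, 9.01 and 8.67 in C57BL/6 (log2 difference 1.51 with SE 0.15, adjusted p = 9.94e-05), again with every NOD array above every C57BL/6 array.

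Hpgds (0.94, SE 0.20, adjusted p = 0.0148), Mrc1 (0.94, SE 0.15, adjusted p = 0.00337) and Cd163 (0.86, SE 0.25, adjusted p = 0.0662) were also higher in NOD, and so were Msr1 (0.43) and Vcam1 (0.36). Lower in NOD were Pparg (−0.76, SE 0.17, adjusted p = 0.0198) and the receptors of dying cells and nucleotides Timd4 (−0.74, SE 0.17, adjusted p = 0.0235), P2ry12 (−0.68, adjusted p = 0.08) and Mertk (−0.50, adjusted p = 0.0662). The strains overlapped for P2ry12 and Mertk among these 11, a count not made over all genes. Cd5l, whose difference at steady state was −1.97, had −1.13 (adjusted p = 0.12) here, with 9.03, 8.19, 8.34 and 8.15 in NOD and 9.07, 9.34, 10.94 and 8.88 in C57BL/6. The highest NOD value of Cd5l lay above the lowest C57BL/6 value.

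The fit above is unpaired. A fit blocked on the replicate number, which takes equal numbers as pairs, called 18 genes in place of 11, 10 higher and 8 lower. The share of all genes called in that blocked fit was not computed. The 7 added were Cd5l (−1.13, adjusted p = 0.0851), Chil3 (−0.96, 0.0168), Gpr34 (−0.63, 0.0125) and Plac8 (−0.41, 0.0869), all lower, and Gas6 (0.54, 0.0734), Nr4a1 (0.44, 0.0652) and Retnla (0.33, 0.0821), all higher. Without NOD replicate 2 or 4 the unpaired count was 7, with the calls of Vcam1, Mertk, P2ry12 and Cd163 lost (adjusted p between 0.111 and 0.192), and these 4 were lost without several other arrays too. Vcam1 was also not called in 1 fit of all 22 arrays (0.365). Gpr34, Chil3 and P2ry12 lay under the lower quartile on many cultured arrays, as given above, and their detection was not tested. Neutrophil markers were lower in NOD (4 of 7, with Ngp at −1.70 and Mmp8 at −1.20), with a mean level of the list of 8.52 to 9.44 on NOD and 9.55 to 10.58 on C57BL/6 arrays, and 2 of 4 B cell markers were lower (Ms4a1, −1.49). Of 13 DC markers 5 were lower in NOD, H2-Aa (−1.10) and Flt3 (−0.74) the most, and Irf4 was higher (0.79), with a mean level of the list of 9.90 to 10.18 on NOD and 10.33 to 10.46 on C57BL/6 arrays. The part of these markers was not tested. Of the other macrophage genes Cd14, a co-receptor of LPS, was higher in NOD (1.66), while Ccr2 (−1.41), C1qa (−0.66) and C1qc (−0.51) were lower.

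With LPS the largest strain differences among the called genes were those of Chil1 and Chil3, both chitinase-like. Of the 40, 7 were higher and 6 lower in NOD (17.5% and 15%), against 5.21% and 5.43% of all genes. Chil1 had 9.60, 10.36, 9.57 and 10.19 in NOD against 8.05, 7.13 and 7.17 in C57BL/6 (log2 difference 2.48 with SE 0.26, adjusted p = 0.000428), which is 5.58-fold. Its relative Chil3 moved the other way, with 4.89, 5.83, 5.38 and 5.63 in NOD against 8.26, 8.34 and 6.12 in C57BL/6 (log2 difference −2.14 with SE 0.47, adjusted p = 0.023). The C57BL/6 arrays of Chil3 were far apart, 1 near the NOD values and the others 2 units above it, and all 4 NOD values lay under the lower quartile of the arrays, so the size of this difference is uncertain.

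Hpgds had 11.14, 10.90, 11.20 and 10.90 in NOD against 9.85, 9.26 and 10.02 in C57BL/6 (log2 difference 1.33 with SE 0.18, adjusted p = 0.00192). Mrc1 had 11.06, 10.98, 11.20 and 11.14 in NOD against 10.10, 9.53 and 10.51 in C57BL/6 (log2 difference 1.05 with SE 0.2, adjusted p = 0.0115). Both stood higher on every NOD array, as in PBS culture. Timd4 had 9.60, 9.85, 9.83 and 9.52 in NOD against 10.66, 10.66 and 10.89 in C57BL/6 (log2 difference −1.03 with SE 0.13, adjusted p = 0.00126). Cd5l had 6.91, 7.58, 7.70 and 7.22 in NOD against 8.23, 8.95 and 7.91 in C57BL/6 (log2 difference −1.01 with SE 0.25, adjusted p = 0.0425). Both were lower on every NOD array, Cd5l by a narrow margin.

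The smaller differences with LPS were higher values in NOD of F13a1 (0.89, SE 0.16), Cd163 (0.63, SE 0.14), Gas6 (0.62, SE 0.17) and Retnla (0.48, SE 0.14), and lower values of Pparg (−0.81, SE 0.16), Gpr34 (−0.57, SE 0.14) and Ms4a6c (−0.52, SE 0.12), with adjusted p between 0.00769 (F13a1) and 0.0664 (Retnla). All Gpr34 values with LPS lay under the lower quartile of the arrays, at 4.99 to 5.46 in NOD and 5.65 to 5.88 in C57BL/6. Their detection above background was not tested. None of the 13 called genes overlapped between the strains, a count not made over all genes. Without C57BL/6 replicate 3, 8 genes were called, and Cd5l (adjusted p = 0.126), Gpr34 (0.144), Gas6 (0.164), Retnla (0.21) and Ms4a6c (0.101) were not, and Gpr34, Gas6 and Retnla were lost without other single arrays too. In the blocked fit Gas6 was not called (0.53, adjusted p = 0.117), where Plac8 (−1.14, 0.00593) and Spic (−0.61, 0.0426) were. NOD replicate 1 has no C57BL/6 counterpart with LPS and does not bear on the blocked differences. In 1 fit of all 22 arrays Cd5l (0.132) and Gpr34 (0.107) were not called. Of 7 neutrophil markers 5 were lower in NOD, with S100a9 at −4.22 and Ngp at −2.87, and S100a8 was higher (0.87), and the mean level of the list was 8.98 to 9.35 on NOD and 10.38 to 10.80 on C57BL/6 arrays. Of 13 DC markers 6 were lower in NOD, H2-Aa (−1.11) and Flt3 (−0.87) the most, and Batf3 was higher (0.62), with a mean level of the list of 9.99 to 10.07 on NOD and 10.30 to 10.44 on C57BL/6 arrays. The part of these markers in the differences was not tested. Among other macrophage genes Cd14 was higher (1.03) and Ccr2 (−1.53), C1qa (−0.67) and C1qc (−0.62) were lower.

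Over the 3 strain comparisons 24 genes were called at least once by their main probe sets and 16 in none. The share of all genes called at least once was not computed, so the 24 have no background to be set against. Maf, among the 16, was called lower in NOD by 2 of its 5 other probe sets in PBS culture (−0.49 and −0.46) and by 2 in LPS culture (−0.74 and −0.56), and 1 probe set of Msr1 was higher in NOD in LPS culture (1.08), in PBS culture (1.01) and at steady state (0.66). Other probe sets also called Gpnmb lower in PBS culture (−0.69) and Vcam1 higher in LPS culture (0.67). Chil1 was higher and Pparg lower in NOD in all 3. In both cultures F13a1, Hpgds, Mrc1 and Cd163 were higher and Timd4 lower, and at steady state these 5 had differences of 0.19, 0.03, 0.08, 0.16 and −0.07, not called. Ms4a6c was higher in NOD at steady state (0.35) and lower with LPS (−0.52). The PBS and LPS arrays of a strain with equal numbers had correlated deviations, so the 2 cultures are not taken as independent.

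**Figure D3:**
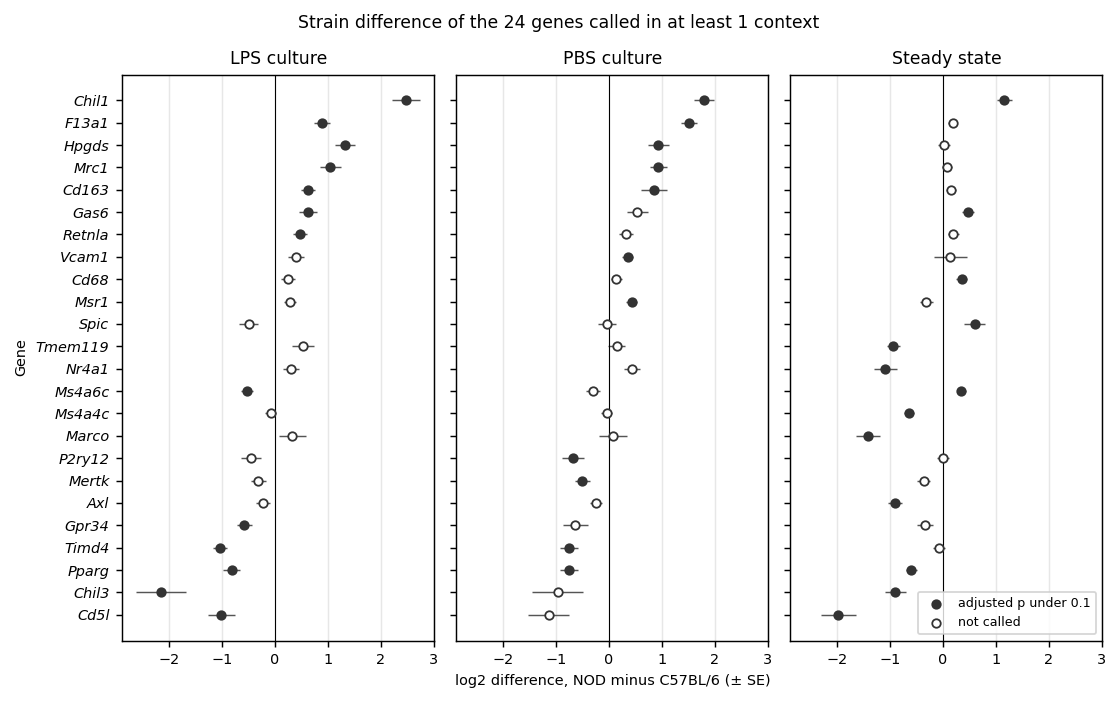
Log2 difference of NOD minus C57BL/6 (x axis, ± SE) in LPS culture, PBS culture and at steady state (panels) for the 24 genes called in at least 1 of them (y axis), filled where the adjusted p was under 0.1. Chil1 at the top is filled in every panel, at 2.48 with LPS, 1.79 with PBS and 1.16 at steady state, and Chil3 has its largest difference with LPS (−2.14).

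**Figure D4:**
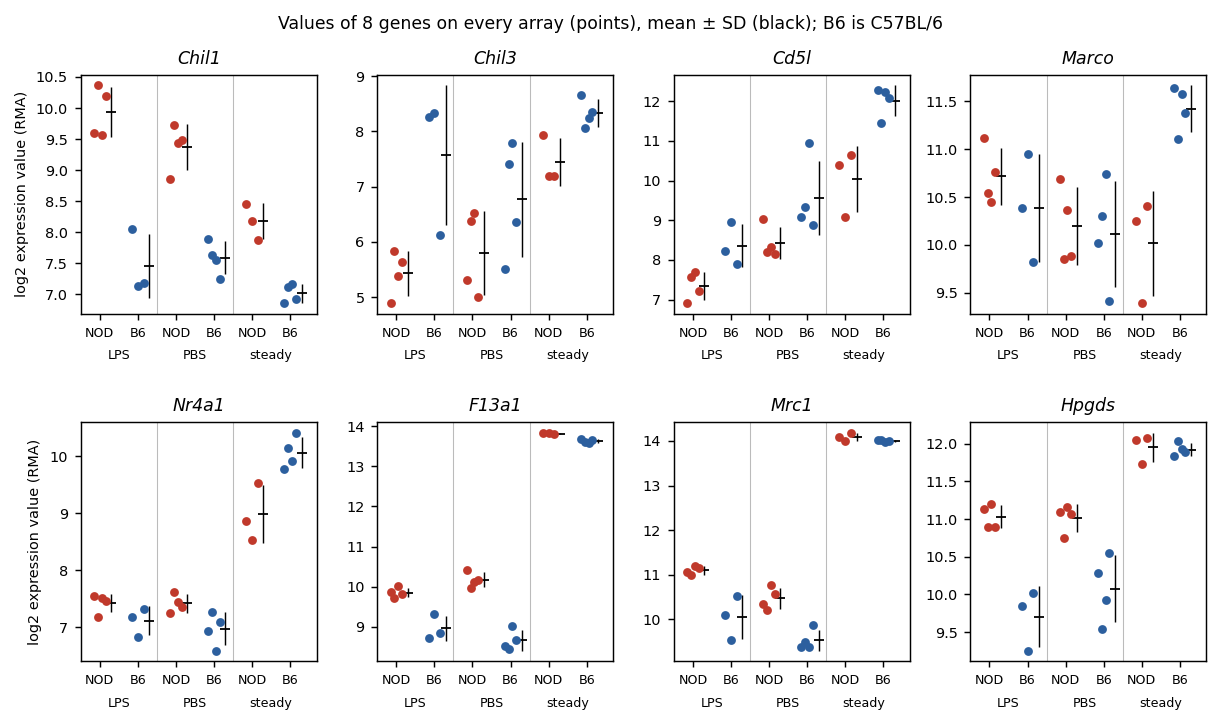
Log2 expression values on every array (points, NOD red and C57BL/6 blue) of 8 genes in LPS culture, PBS culture and at steady state, with the mean ± SD of each group in black. F13a1 and Mrc1 stand near 14 in both strains at steady state and are higher in NOD in both cultures, while Cd5l, Marco and Nr4a1 are lower in NOD at steady state.

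Whether culture changed the genes to a different extent in the strains was tested as the change in NOD minus that in C57BL/6. The change differed for 11 of the 40 genes, more positive in NOD for 9 and more negative for 2 (22.5% and 5%), against 4.91% and 2.89% of all genes. Nr4a1 changed by −1.56 in NOD and −3.09 in C57BL/6, with 7.25, 7.63, 7.45 and 7.35 in NOD and 6.94, 7.28, 6.59 and 7.10 in C57BL/6 PBS culture, so that the strains, apart at steady state, had closer values after culture (difference of the changes 1.52, SE 0.28, adjusted p = 0.00377). Marco had 10.69, 9.85, 10.36 and 9.88 in NOD and 10.02, 10.30, 10.74 and 9.41 in C57BL/6 PBS culture, and its change was 0.18 in NOD and −1.31 in C57BL/6 (difference 1.49, SE 0.39, adjusted p = 0.0348). By its second probe set the difference was 0.66 and not called (adjusted p = 0.213). Tmem119, with 7.04, 7.08, 6.57 and 6.92 in NOD PBS culture against 9.09, 8.95 and 9.05 at steady state and 6.90, 7.11, 6.44 and 6.58 in C57BL/6 PBS culture against 9.81, 10.00, 9.79 and 10.25 at steady state, fell less in NOD (difference 1.08, SE 0.22, adjusted p = 0.00795). These 3 genes were lower in NOD at steady state and not called between the strains in PBS culture, comparisons that rest on the same arrays as this test.

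F13a1 had 10.43, 9.98, 10.12 and 10.18 in NOD PBS culture against 13.82, 13.82 and 13.79 at steady state, and its change, −3.64 in NOD and −4.96 in C57BL/6, differed by 1.32 (SE 0.18, adjusted p = 0.000235). Hpgds (0.91, adjusted p = 0.0459) and Mrc1 (0.85, adjusted p = 0.0123) also fell less in NOD. Msr1 (0.74), Axl (0.67) and Ms4a4c (0.60) rose more in NOD, with adjusted p of 0.00719, 0.03 and 0.00664. Timd4 (−0.67, adjusted p = 0.0971) fell more in NOD, and Ms4a6c (−0.65, adjusted p = 0.0257) rose in C57BL/6 and had a change of −0.07 in NOD. The PBS culture and steady state arrays of a strain share only numbers 1 and 4, whose deviations correlated at 0.277 and 0.0996 in NOD and 0.177 and −0.0328 in C57BL/6, which does not settle whether these pools are paired. With the replicate number as a block 4 genes were called, of which Nr4a1, Marco and F13a1 are 3 and Cd5l (1.74, adjusted p = 0.0375) the other. Only arrays numbered 1 and 4 bear on the blocked differences, so the lost calls do not tell whether the pools are paired. The Timd4 call ended when any of 13 of the 15 arrays was left out (adjusted p up to 0.235) and with array medians subtracted (0.109), that of Marco without NOD steady state replicate 4 (0.125), that of Hpgds without the same array (0.148), and that of Axl with the mean over its probe sets (0.467). Other probe sets of Axl (−0.28), Ms4a6c (−0.44) and Msr1 (0.34) were also not called. That of Axl is the dim one described above, and it also enters the mean over the probe sets of Axl. Of 5 fibroblast genes 2 also had a more positive change in NOD, Col3a1 (1.30) and Dcn (1.18). Of 17 other macrophage and monocyte genes 3 had a more positive change in NOD, Cd14 (1.57) the most, and 5 a more negative one. The part of these shifts was not tested.

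LPS was then compared with PBS in culture, on the same PBS arrays as above. Of the 40 genes 10 were lower with LPS in NOD cells and 1 was higher (25% and 2.5%), against 2.46% lower and 1.93% higher over all genes. In C57BL/6 cells 2 were lower and none higher, against 0.868% and 0.945% of all genes, and at an unadjusted p under 0.05 in limma there were 24 of the 40 in NOD and 14 in C57BL/6, against 13.9% and 10.9% of all genes. The median log2 difference of the 40 was −0.28 in NOD and −0.16 in C57BL/6, and 28 and 27 of the 40 had a negative difference, as had 51.3% and 44.4% of all genes.

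Cd5l had 6.91, 7.58, 7.70 and 7.22 with LPS against 9.03, 8.19, 8.34 and 8.15 with PBS in NOD (log2 difference −1.08 with SE 0.22, adjusted p = 0.0261), without overlap. The other genes that fell with LPS in NOD were Pparg (−0.93, SE 0.15, adjusted p = 0.0103), the fatty acid and oxidised lipid receptor Cd36 (−0.81, SE 0.13, adjusted p = 0.00866), Mertk (−0.70, SE 0.14), Fn1 (−0.70, SE 0.14), Folr2 (−0.68, SE 0.12), Timd4 (−0.62, SE 0.15), the transcription factor Klf4 (−0.51, SE 0.12), Ms4a6c (−0.51, SE 0.13) and Lyz2 (−0.37, SE 0.10). These span scavenger, clearance and monocyte genes and no single role. Mrc1 alone was higher, at 11.10 ± 0.10 in NOD LPS and 10.47 ± 0.24 in NOD PBS culture (SD, n = 4 each; log2 difference 0.63, SE 0.13, adjusted p = 0.0289). No called gene overlapped between LPS and PBS arrays in NOD, a count not made over all genes. Both other probe sets of Cd36 were lower (−0.98 and −1.35), while second probe sets of Fn1 (−0.16), Klf4 (−0.66) and Ms4a6c (−0.48) were not called.

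In C57BL/6 Mertk was at 9.81 ± 0.08 in LPS and 10.70 ± 0.24 in PBS culture (log2 difference −0.89 with SE 0.15, adjusted p = 0.0432) and Pparg at 8.45 ± 0.18 in LPS and 9.32 ± 0.31 in PBS culture (log2 difference −0.87 with SE 0.18, adjusted p = 0.0705; SD, n = 3 and 4). Both genes were thus called lower in each strain, and 8 genes were called lower in NOD only. This does not show that the strains differ, since a test of the difference called none of the 40 genes (limma on the 15 cultured arrays, 0.0165% higher and 0.00550% lower over all genes). At an unadjusted p under 0.05 in limma there were 2 of the 40, against 3.44% of all genes. These were F13a1 (−0.62) and Adgre1 (0.45), each with an adjusted p of 0.9999 in limma. None of the 40 was called in this test under any alternative run, single arrays left out included.

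**Figure D5:**
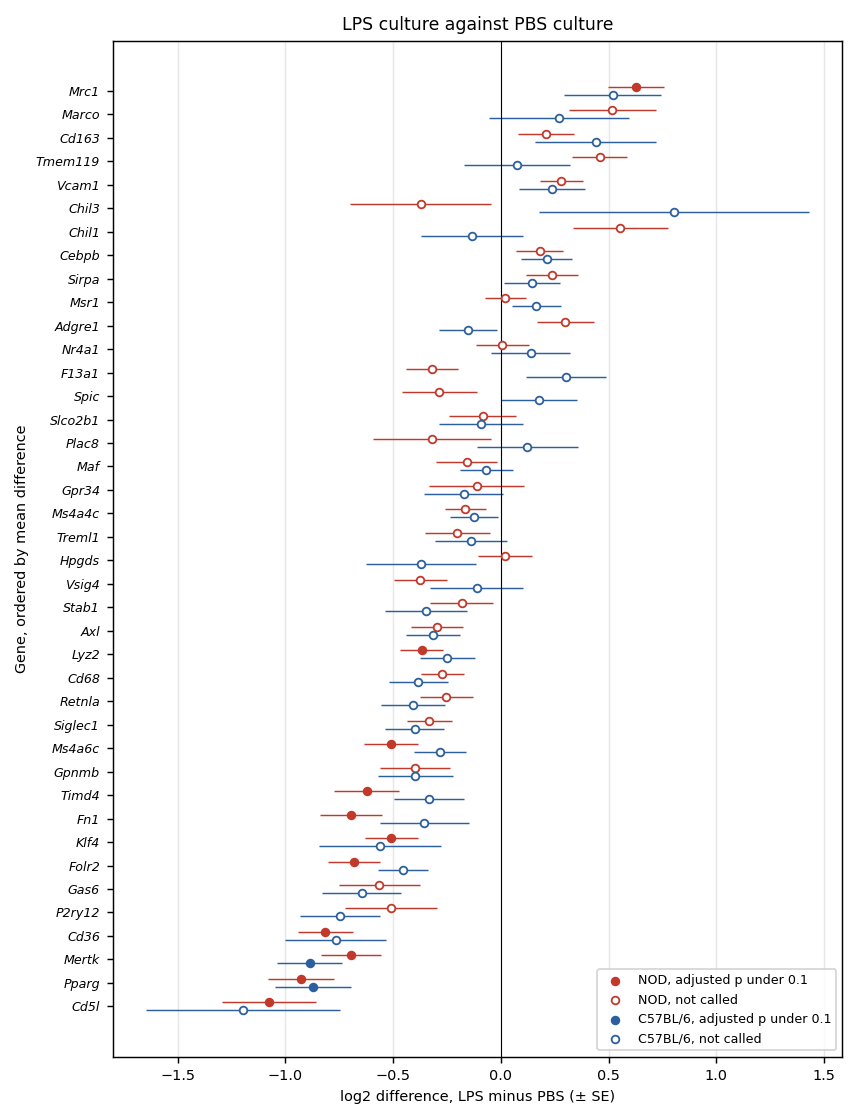
Log2 difference of LPS minus PBS culture (x axis, ± SE) for the 40 genes (y axis, ordered by the mean of both strains), NOD in red and C57BL/6 in blue, filled where the adjusted p was under 0.1. Filled points lie left of 0, such as Cd5l in NOD (−1.08) and Mertk in C57BL/6 (−0.89), apart from Mrc1 in NOD (0.63).

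The counts for LPS moved with the fit, and shares of all genes were computed for the unpaired fit alone. With the replicate number as a block, 19 genes were called in NOD, 15 lower and 4 higher, adding Gas6 (−0.56, adjusted p = 0.0698), P2ry12 (−0.51, 0.0661), Gpnmb (−0.40, 0.035), Siglec1 (−0.33, 0.0657) and Axl (−0.30, 0.086) to those lower and Chil1 (0.55, 0.0348), Marco (0.52, 0.0672) and Tmem119 (0.46, 0.0468) to those higher, and 4 in C57BL/6, adding Cd5l (−1.36, 0.0675) and Cd36 (−0.72, 0.0675), both lower. Without NOD PBS replicate 1 or NOD LPS replicate 4, 7 were called in NOD, and Timd4, Klf4, Ms4a6c and Lyz2 were the 4 whose calls ended without several single arrays (adjusted p up to 0.22), while Cd5l (0.127) and Klf4 (0.166) lost theirs in 1 fit of all 22 arrays and Lyz2 with array medians subtracted (0.108). The 2 calls in C57BL/6 both ended without PBS replicate 1 or 4 or LPS replicate 2, 3 or 4 (adjusted p between 0.115 and 0.245) and Pparg without PBS replicate 3 (0.121), and 4 genes were called without PBS replicate 2. Of the other macrophage and monocyte genes 7 of 17 were lower and 1 higher in NOD, with Trem2 (−1.12), C1qc (−1.04), C1qa (−0.88) and Lgmn (−0.71) the largest, and 2 were lower (C1qc, −0.93, and C1qa, −0.87) and 1 higher (Cd14, 0.94) in C57BL/6. The neutrophil list had 2 markers higher in NOD and 1 in C57BL/6, S100a8 by 1.83 and 1.59, and the part of this was not tested.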

How the data were processed

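RNA of sorted pancreatic CD8α- DCs was amplified and hybridized to Affymetrix Mouse Genome 430 2.0 arrays. The table deposited by the authors gives 1 RMA value on the log2 scale for each probe set, so that levels of 1 gene can be set side by side between arrays but dim values are compressed and counts of molecules are not known. No source used here states the software version. The tests ran on 45037 of the 45101 probe sets, leaving aside 64 AFFX controls. All 22 arrays were used, and their number limits the precision.

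A comparison used only the arrays of its groups and was fitted in R 4.3.3 with limma 3.58.1 (lmFit and eBayes, unpaired, two-sided), and the 2 interactions on 15 arrays each. A call is a Benjamini-Hochberg adjusted p under 0.1 over all 45037 probe sets, and SE is the moderated standard error. Shares of all genes refer to 18193 genes with a probe set of their own. The code was tested on simulated data. Members called with a log2 difference of at least 1 are given with every array, at most 8 for a comparison, and the others by their difference. Genes that are not members come from marker lists, at most 4 for each list and comparison. The members, their roles and the marker lists were chosen with earlier results of these data known.

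Samples were grouped by their titles, and the replicate numbers come from there. In the strain and LPS comparisons, arrays with equal numbers had correlated deviations from their group means. For NOD against C57BL/6 the correlations were 0.109 to 0.433 (steady state), 0.137 to 0.32 (PBS) and 0.114 to 0.345 (LPS). For LPS against PBS they were 0.241 to 0.487 (NOD) and 0.259 to 0.423 (C57BL/6). The main fits were nonetheless all unpaired, and the number entered only as a block in an alternative fit. That block was also run for PBS culture against steady state, where 2 shared numbers in each strain leave the pairing unsettled. Alternatives were the number as a block, the dimmer 50% of probe sets filtered out, all 22 arrays in 1 fit, array medians subtracted, an intensity trend with a robust spread, each gene as the mean over its probe sets, an adjusted p under 0.05, and each array left out.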

Additional observations from a re-analysis of the deposited data

Results flagged for a closer look

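A single array stood apart from the other 3 of its group for 5 of 160 combinations of gene and group, by Dixon's test at its 95% critical value, where chance gives about 1 in 20. Sirpa was at 13.45 on C57BL/6 PBS replicate 3, against 13.14 to 13.19 on the others. Folr2 was at 11.65 on NOD LPS replicate 3, against 11.27 to 11.32. Siglec1 was at 12.07 on the same array, against 12.24 to 12.26. Cebpb was at 12.77 on C57BL/6 steady state replicate 4, against 13.13 to 13.20, and at 13.25 on C57BL/6 PBS replicate 1, against 13.17 to 13.18. Without C57BL/6 PBS replicate 3 Sirpa was no longer called in culture (adjusted p = 0.163).

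The change from steady state to PBS culture differed between the strains by the test of the difference itself for 11 genes. Of these 11 calls 2 held under every alternative run, and 8 ended with the replicate number as a block. The change was more positive in NOD for Nr4a1 (1.52), Marco (1.49), F13a1 (1.32), Tmem119 (1.08), Hpgds (0.91), Mrc1 (0.85), Msr1 (0.74), Axl (0.67) and Ms4a4c (0.60), and more negative for Timd4 (−0.67) and Ms4a6c (−0.65).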

How the results depend on the processing

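Of 130 calls of single genes over 8 comparisons, 95 held under every alternative run and 1 turned its direction, Sirpa in C57BL/6 culture, which was −0.29 (adjusted p = 0.0105) as the mean over its probe sets and 0.27 by its main one. The counts were 13 genes at steady state, 11 in PBS culture and 13 in LPS culture between the strains, 11 and 2 for LPS in NOD and C57BL/6, 35 and 34 for culture, and 0 and 11 for the strain by LPS and strain by culture tests. In PBS culture the count was 18 with the replicate block, 17 with the mean over probe sets and 7 at an adjusted p under 0.05. For LPS in NOD it was 19 with the block and 7 at 0.05. For LPS in C57BL/6 it was 4 with the filter, 9 in 1 fit of all 22 arrays, 5 with an intensity trend and robust spread, 4 with the block, 4 with the mean over probe sets and 1 at 0.05. The strain by culture count was 4 with the block. That fit rests on the arrays with shared numbers 1 and 4 alone, so the lost calls are no test of pairing. Shares of all genes were not computed for these alternatives. Other causes of these moves were not tested. Every other such count, including 36 and 32 with the block for culture, stayed within 1.5 times of its value.

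With 1 array left out the counts between the strains ranged from 11 to 17 for the steady state cells, 7 to 12 in PBS culture (7 without NOD PBS replicate 2 or 4), 8 to 13 in LPS culture (8 without C57BL/6 LPS replicate 3), 7 to 9 for LPS in NOD (7 without NOD PBS replicate 1 or NOD LPS replicate 4), 0 to 4 for LPS in C57BL/6, 33 to 36 and 33 to 34 for culture in NOD and C57BL/6, 0 to 0 for the strain by LPS test and 8 to 12 for the strain by culture test. For PBS culture against steady state, where 2 shared numbers in each strain leave the pairing unsettled, the block ended the calls of Cd36 in NOD and of Plac8 and Sirpa in C57BL/6 and 8 of the 11 strain by culture calls. Detection above background was not tested, so values below the lower quartile bound the precision of Vsig4, Gpr34, P2ry12 and Chil3.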
